A study of Homo sapiens with 24 samples.

Results

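The potassium channel genes of LUHMES neurons were examined after exposure to rotenone, an inhibitor of complex I of the mitochondrial respiratory chain. Members were the human protein-coding genes whose symbol begins with KCN, without a hyphen, found through the RefSeq accession of their array probes. All 96 such genes of the RefSeq table had a probe among the 21743 genes on the array, and 93 of them passed the filter on dim spots and were tested among 21240 genes. KCNA4, KCNE3 and KCNJ1 had no spot that passed and have no value here.

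LUHMES are a human line of embryonic mesencephalic cells immortalized with a v-myc gene that tetracycline switches off, so that they differentiate into dopaminergic neuron-like cells. They were grown here as 3D aggregates from a single line, and all groups shared the differentiation medium with tetracycline, cAMP and GDNF. RNA was hybridized to 24 single-color arrays, 3 in each of 8 groups. On day 7 of differentiation the aggregates received 50 nM rotenone for 12 h, 50 nM for 24 h, 100 nM for 24 h, or DMSO, the vehicle, diluted as for 100 nM. Each of these 4 treatments was collected right after exposure, labeled day 8, or after wash-out of the compound and 7 days of recovery, on day 15. The labels give no exposure time for DMSO, so that a difference between 12 h of rotenone and DMSO cannot be told apart from a difference in the hour of collection. Replicates were wells, so that p values measure the spread between wells of 1 line.

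Potassium channels let potassium leave or enter the cell along its gradient, which sets the resting potential and ends the action potential. Voltage-gated pore subunits open on depolarization, calcium-activated and sodium-activated channels follow the ions that firing brings in, and inward rectifiers and 2-pore-domain channels carry current near rest. Auxiliary subunits bind to the pores and set how fast and how often they open. In midbrain dopaminergic neurons, A-type channels of the Kv4 family with their KChIP subunits pace spontaneous firing, and ATP-sensitive channels, built of Kir6 pores and sulfonylurea receptors, couple firing to the energy state of the cell.

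Values are log2 intensities after normalization, and a change is a difference of group means on that scale with its standard error. A gene counted as called when limma's moderated test on all arrays gave it an adjusted p (Benjamini-Hochberg, over all genes tested) below 0.05 and its groups differed by more than 1.5-fold. Levels of different genes depend on their probes and were not set against each other.

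Most channel genes were readable on these arrays. Well above background is the mark that the scanner software gives a spot. Of the 93 tested, 52 (55.9%) were well above background on every array and 3 on none, against 60.8% and 5.24% of all genes. The share on every array was 11 of 15 among auxiliary subunits, 17 of 29 among voltage-gated pore subunits, 9 of 15 among inward rectifiers, 7 of 15 among 2-pore-domain channels and 6 of 8 among calcium- or sodium-activated channels. Among the electrically silent voltage-gated subunits, which need a partner to form a channel, it was 1 of 10. KCND3, a Kv4 pore subunit, was well above background on no array, and its family member KCND1 on none of the arrays of DMSO and 100 nM on day 8. KCNJ12 and KCNJ18 are near-identical copies, so that their probes may not tell them apart.

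As for the cells, all 7 neuron markers, such as TUBB3, MAP2 and SNAP25, were well above background on all arrays of each group. Of 9 dopaminergic markers, 6 or 7 were well above background on all 3 arrays of a group, while SLC18A2, the vesicular monoamine transporter, was so on no array of 5 groups. GFAP, an astrocyte marker, was well above background on no array in 7 of the 8 groups. With DMSO on day 8, 0 of 6 astrocyte markers were so on all 3 arrays, and GFAP and AQP4 were so on none. In that group, 3 of 5 endothelial, 4 of 6 pericyte, 2 of 4 oligodendrocyte, 1 of 4 microglia and 1 of 4 fibroblast markers were so on all 3 arrays. Which cells gave these signals was not tested. No marker of any of the 9 lists was called after 100 nM or after 50 nM for 12 h on day 8, and ELAVL4, a neuron marker, fell after 50 nM for 24 h. Each of 3 slides held 1 array of every group. On slide 1, a repeated slide per its labels and scanned on another day, the share of spots well above background was 67.3% to 82.4%, and on slides 2 and 3 it was 50.9% to 62.4%. The scan name of day 15 DMSO replicate 1 names 12 h instead of DMSO, and its group rests on its label.

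After 24 h of rotenone, channel genes moved in both directions. KCND2 and KCNK10 fell and KCNJ8 and KCNIP4 rose at both concentrations, while KCNS1 fell at 100 nM, and KCNJ3 and KCNIP2 fell at 50 nM. With 100 nM, 6 of 93 members were called, or 6.45% against 3.45% of all genes tested, 3 of them up (1.43% of all genes) and 3 down (2.02%). With 50 nM for 24 h, 6 were called, or 6.45% against 2.80%, 2 of them up (1.38%) and 4 down (1.42%). By the adjusted p alone, at any fold, 9 members (9.68%) passed with 100 nM against 9.48% of all genes, and 10 (10.8%) with 50 nM for 24 h against 8.02%. Median changes were -0.08 and -0.02 over the members and -0.02 and -0.02 over all genes. With 100 nM, 27 members had arrays that did not overlap between the groups, 29% against 28.5% of all genes. The 87 members not called lay between -0.64 (KCNAB1) and 0.85 (KCNG2, well above background on 1 of the 6 arrays). When slides entered the fit as a block and the batch correction was left out, KCNAB1 was also called down (-0.61, adjusted p = 0.0390, against 0.0509). Without either, 2 members were called with 100 nM and 1 with 50 nM for 24 h. In such bulk samples, fewer cells of a type and less RNA per cell cannot be told apart.

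KCND2 encodes Kv4.2, the pore of A-type channels that slow the approach to the next spike. It read 7.36, 7.49 and 7.23 with DMSO on day 8. After 24 h it read 6.40, 6.74 and 6.40 with 100 nM, and 6.69, 6.29 and 6.56 with 50 nM. All 6 arrays of 24 h lay below all 3 DMSO arrays. The change was -0.84 ± 0.13 (SE, n = 3 against 3, adjusted p = 0.000249) with 100 nM and -0.85 ± 0.13 (adjusted p = 0.000317) with 50 nM. Within slides 1, 2 and 3 it was -0.95, -0.75 and -0.83 with 100 nM. After 12 h of 50 nM, KCND2 still read 7.24, 7.37 and 7.50, overlapping DMSO, with a change of 0.01 ± 0.13 (adjusted p = 0.987). The difference between 24 h and 12 h of 50 nM, tested directly, was -0.86 ± 0.13 (adjusted p = 0.00314). The arrays of both concentrations overlapped, and the difference of 100 nM against 50 nM was 0.00 ± 0.13.

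The KChIPs, small calcium-binding proteins that attach to Kv4 pores and bring them to the membrane, did not move as one. KCNIP4, which encodes KChIP4, read 8.18, 8.32 and 8.48 with DMSO on day 8. It read 9.14, 9.03 and 9.12 after 100 nM, 9.26, 9.26 and 9.17 after 50 nM for 24 h, and 8.84, 9.01 and 9.11 after 12 h. All 9 rotenone arrays lay above the DMSO arrays. KCNIP4 rose by 0.78 ± 0.21 (adjusted p = 0.0258) and by 0.91 ± 0.21 (adjusted p = 0.0114) after 24 h, and its change of 0.66 ± 0.21 after 12 h was not called (adjusted p = 0.0817). The calls were sensitive to single arrays: that with 100 nM was lost without any 1 of 5 of the 6 arrays, all but DMSO replicate 3, with adjusted p up to 0.105, and that with 50 nM without DMSO replicate 1 (adjusted p = 0.0553).

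KCNIP1 read 7.19, 7.17 and 7.00 with DMSO and 7.74, 7.81 and 7.84 after 12 h of 50 nM, a rise of 0.68 ± 0.12 (adjusted p = 0.00254). After 24 h its change was 0.34 ± 0.12 (adjusted p = 0.115) with 50 nM and 0.54 ± 0.12 with 100 nM, which passed the adjusted p of 0.00815 but not the fold threshold. The groups did not overlap in any of these comparisons. KCNIP2 fell by 0.80 ± 0.24 with 50 nM for 24 h (adjusted p = 0.0443), from 7.24, 7.16 and 6.85 to 6.0, 6.65 and 6.18, and this call was lost without any 1 of 5 of the 6 arrays, all but 50 nM 24 h replicate 2, with adjusted p up to 0.196. With 100 nM, KCNIP2 read 6.65, 6.79 and 6.58, a change of -0.40 ± 0.24 (adjusted p = 0.379). KCNIP3, a KChIP that also binds DNA, was well above background on no array of DMSO or 100 nM on day 8. DPP6 and DPP10, transmembrane partners of Kv4 outside the KCN symbols, changed by 0.12 (adjusted p = 0.834) and -0.22 (adjusted p = 0.605) with 100 nM.

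Of the other voltage-gated pore subunits given here, none was called with 100 nM. KCNH2, the ERG channel, read 8.28, 8.36 and 8.16 with DMSO and 8.62, 8.77 and 8.54 with 100 nM, without overlap, and its change of 0.38 ± 0.13 did not pass the test (adjusted p = 0.0694). With 50 nM for 12 h the change of 0.45 ± 0.13 passed the adjusted p of 0.0421 but not the fold threshold. KCNA6, a Kv1 subunit, changed by -0.42 ± 0.09 (adjusted p = 0.00777) with 100 nM and by -0.46 ± 0.09 (adjusted p = 0.00430) with 50 nM for 24 h, both under the fold threshold. KCNA2 (Kv1.2) changed by -0.26 ± 0.16 with 100 nM (adjusted p = 0.405) and KCNC1 (Kv3.1) by -0.11 ± 0.10 (adjusted p = 0.651), each with overlapping arrays. KCNS1, an electrically silent subunit that needs a pore-forming partner, read 4.76, 4.79 and 4.72 with DMSO and 4.39, 3.65 and 3.64 with 100 nM, a change of -0.86 ± 0.19 that was called (adjusted p = 0.00716). It was well above background on only 2 of the DMSO arrays and 1 of the 100 nM arrays, and the call was lost with an offset of 50 in the background correction (-0.24) and with either scaling to the 75th percentile.

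KCNK10 encodes TREK-2, a 2-pore-domain channel opened by stretch and lipids that holds neurons near rest. It read 6.04, 6.38 and 5.97 with DMSO, 5.65, 5.64 and 5.66 after 12 h of 50 nM, 5.58, 5.07 and 5.33 after 24 h, and 5.28, 5.27 and 4.62 with 100 nM. All rotenone arrays lay below the DMSO arrays. KCNK10 fell by 1.07 ± 0.22 with 100 nM (adjusted p = 0.00372) and by 0.80 ± 0.22 with 50 nM for 24 h (adjusted p = 0.0291). The change of -0.48 ± 0.22 after 12 h was not called (adjusted p = 0.273). The call with 50 nM was lost without DMSO replicate 1 or 2 or 50 nM replicate 2 or 3 (adjusted p up to 0.131). KCNK4, which encodes the related TRAAK channel, changed by -0.56 ± 0.17 with 100 nM (adjusted p = 0.0391), below the fold threshold. KCNK9 (TASK-3) was well above background on 1 array of each of these groups.

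Among the inward rectifiers, KCNJ8 encodes Kir6.1 and KCNJ11 encodes Kir6.2, the alternative pores of ATP-sensitive channels. KCNJ8 read 6.0, 5.75 and 5.79 with DMSO, 6.52, 6.45 and 6.64 after 12 h of 50 nM, 6.94, 6.92 and 6.49 after 24 h, and 6.90, 6.51 and 6.39 with 100 nM. All 9 rotenone arrays lay above the DMSO arrays, and KCNJ8 was the only member called in all 3 comparisons with DMSO on day 8. It rose by 0.68 ± 0.19 (adjusted p = 0.0441), by 0.93 ± 0.19 (adjusted p = 0.00462) and by 0.75 ± 0.19 (adjusted p = 0.0176), respectively. The call at 12 h was lost without any 1 of its 6 arrays (adjusted p up to 0.141), and that with 100 nM without DMSO replicate 2 or 3 or 100 nM replicate 1 (adjusted p up to 0.110), while that with 50 nM for 24 h held without each array (adjusted p up to 0.0293). Pericytes also express KCNJ8. Of 6 pericyte markers none was called after rotenone on day 8, and the log2 of their summed intensity ranged from 9.94 to 10.30 with DMSO, from 10.08 to 10.16 and from 10.24 to 10.74 with 50 nM for 12 h and 24 h, and from 10.09 to 10.49 with 100 nM. On all 3 arrays, 4 of the 6 were well above background with DMSO and with 100 nM and 5 with 50 nM, and RGS5 was so on no array with 100 nM. The part of such cells in the result was not tested.

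KCNJ11 read 4.90, 4.86 and 4.23 with DMSO, well above background on 2 of the 3 arrays, and 5.77, 5.65 and 5.26 after 12 h of 50 nM, on 3 of 3. It rose by 0.90 ± 0.19 (adjusted p = 0.00679), and the arrays did not overlap. After 24 h it read 4.78, 4.99 and 4.82 with 50 nM and 5.18, 5.06 and 5.14 with 100 nM, with changes of 0.20 ± 0.19 (adjusted p = 0.668) and 0.46 ± 0.19 (adjusted p = 0.145). The call at 12 h was lost with either scaling to the 75th percentile and with an offset of 50. ABCC8, the sulfonylurea receptor SUR1 that completes the neuronal channel, changed by 0.49 ± 0.16 with 100 nM (adjusted p = 0.0621), and ABCC9, the receptor SUR2, by -0.06 ± 0.33 (adjusted p = 0.961), the latter well above background on 2 of 3 arrays of either group.

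KCNJ3 and KCNJ6 encode GIRK1 and GIRK2, the channels through which dopamine D2 receptors hyperpolarize dopaminergic neurons. KCNJ3 read 9.09, 8.95 and 8.73 with DMSO and 7.73, 8.51 and 8.41 after 50 nM for 24 h. It fell by 0.71 ± 0.18 (adjusted p = 0.0183), without overlap. This value rested in part on 1 array: without 50 nM 24 h replicate 1 it was -0.46 (adjusted p = 0.118), and the call was also lost without DMSO replicate 1 or 2. With 100 nM KCNJ3 read 8.42, 8.32 and 8.62, a change of -0.47 ± 0.18 (adjusted p = 0.118). KCNJ6 read 5.10, 5.30 and 5.24 with DMSO and 5.83, 5.72 and 5.83 after 50 nM for 24 h, and its change of 0.58 ± 0.17 passed the adjusted p of 0.0495 but not the fold threshold. With 100 nM the change of KCNJ6 was 0.44 ± 0.17 (adjusted p = 0.137). The GIRK subunits KCNJ3 and KCNJ6 thus differed in the sign of their values, of which only the fall of KCNJ3 with 50 nM for 24 h was called.

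Exposure for 12 h to 50 nM gave a set of upregulated members. In addition to KCNIP1, KCNJ8 and KCNJ11, KCNMB2 and KCNE2 rose, so that 5 members were called up and 0 down (5.38% against 1.75% of all genes in either direction, 0.829% up and 0.923% down). At any fold, 8 members (8.60%) passed the adjusted p, against 5.52% of all genes. The median change was 0.03 over the members and -0.01 over all genes. KCNMB2 encodes an inactivating beta subunit of the BK channel, the large calcium-activated channel. It read 8.67, 8.77 and 8.66 with DMSO and 9.50, 9.40 and 9.54 after 12 h, a rise of 0.78 ± 0.10 (adjusted p = 0.000182), and read 8.67, 8.62 and 8.91 after 24 h of 50 nM and 8.54, 8.88 and 8.70 with 100 nM. KCNE2, a single-span subunit that modulates ERG and other channels, read 8.05, 8.04 and 7.99 with DMSO and 9.02, 8.69 and 8.73 after 12 h, a rise of 0.78 ± 0.12 (adjusted p = 0.000696). After 24 h KCNE2 read 8.03, 7.85 and 7.87 with 50 nM and 7.93, 7.98 and 7.95 with 100 nM, changes of -0.11 ± 0.12 and -0.07 ± 0.12.

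The direct comparison of 24 h with 12 h of 50 nM called 3 members, all lower after 24 h (3.23% against 0.226% of all genes in either direction and 0.113% lower). They were KCND2, given above, KCNE2 at -0.90 ± 0.12 (adjusted p = 0.00186) and KCNMB2 at -0.75 ± 0.10 (adjusted p = 0.00192). The arrays of the exposures did not overlap for any of them, and each call held without each of the 6 arrays. On slides 2 and 3 alone the differences were -1.06 (KCND2), -0.87 (KCNE2) and -0.71 (KCNMB2). None of them was called there (adjusted p = 0.249, 0.291 and 0.291). The labels do not say whether both exposures were collected at the same hour, so that exposure time and hour of collection cannot be told apart here either. KCNJ11 differed by -0.70 ± 0.19 between 24 h and 12 h and was not called (adjusted p = 0.112). The comparison of 100 nM with 50 nM for 24 h called 0 of 93 members and 0 of 21240 genes (0%), with 4 members and 886 genes at an unadjusted p under 0.05. The lowest value was that of KCNS1 at -0.70 ± 0.19.

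Of the BK channel itself, KCNMA1, the pore subunit, read 6.36, 6.67 and 6.43 with DMSO and 6.21, 6.49 and 6.42 with 100 nM, a change of -0.11 ± 0.10 (adjusted p = 0.653). Its 5 probes, to 3 transcript accessions, ranged from -0.60 to 0.34 with 100 nM, so that the mean over probes covers values of both signs. KCNN3, the SK3 channel that follows each spike of dopaminergic neurons, changed by -0.34 ± 0.15 with 100 nM (adjusted p = 0.209) and by -0.36 ± 0.15 with 50 nM for 24 h (adjusted p = 0.184).

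**Figure D1:**
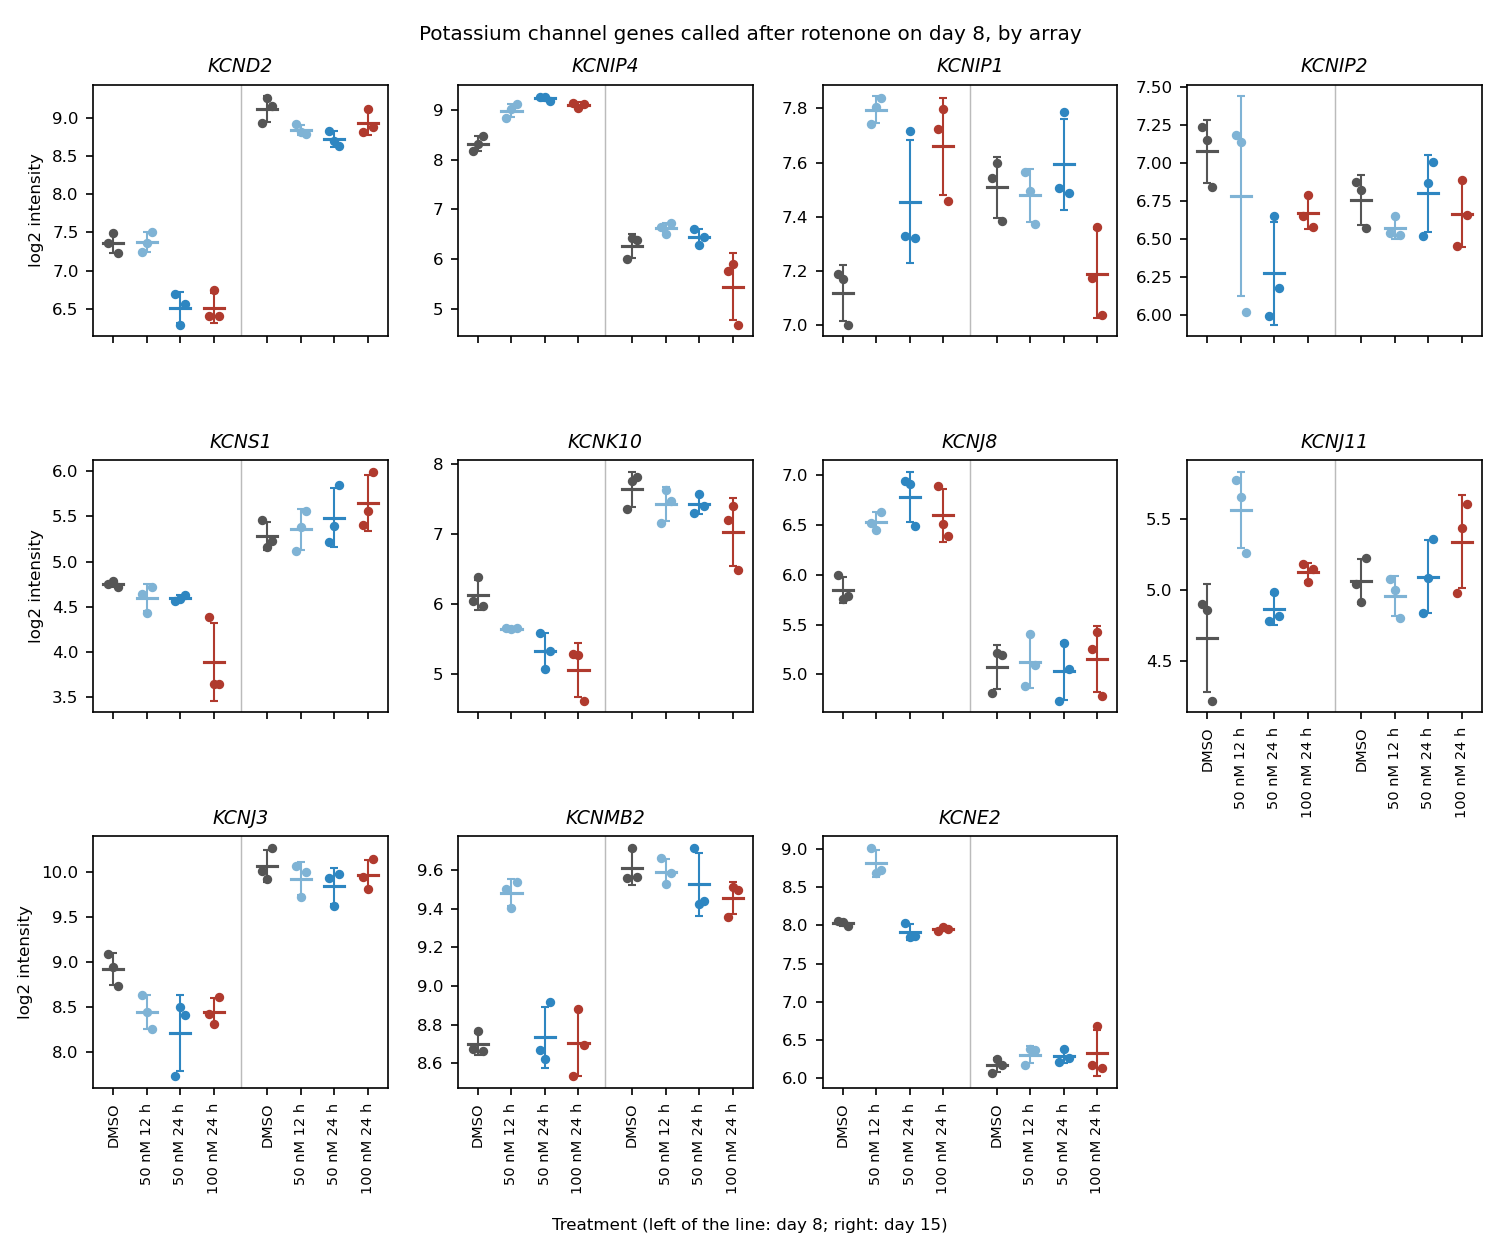
Log2 intensity of 11 potassium channel genes called in any comparison of rotenone with DMSO on day 8, with each array as a point, the group mean as a bar and the SD as an error line. Groups left of the grey line are day 8 and those right of it day 15. On day 8, KCND2 was at 7.23 to 7.49 with DMSO, at 7.24 to 7.50 after 12 h and at 6.29 to 6.74 after 24 h of 50 or 100 nM, and KCNMB2 and KCNE2 were called after 12 h and in neither comparison at 24 h.

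Of the 25 related genes of potassium handling outside the KCN symbols, 1 was called with 100 nM on day 8, where 3.45% of all genes were. SLC12A7, a potassium chloride cotransporter, rose by 0.61 ± 0.19 (adjusted p = 0.0478), while the sodium-potassium ATPase subunits and the other cotransporters were not called. With 50 nM for 12 h 1 was called, which was lower (0.923% of all genes). With 50 nM for 24 h 0 of 25 were called (2.80% of all genes), with LRRC26, a BK gamma subunit, at -0.43 ± 0.13 (adjusted p = 0.0480) below the fold threshold.

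Promoter windows of RefSeq (build GRCh38.p14), from 250 bases before to 50 after a gene's start, were searched on both strands for the cAMP response element TGACGTCA, the amino acid response element TGATGCAA, the E-box CACGTG and the NRF1 core GCATGCGC. Of the 96 members, 72 had 1 or more windows, 110 in all. An E-box was in 7.27% of the members' windows and in 7.26% of all 35116 windows, an amino acid response element in 2.73% against 0.866%, a cAMP response element in 0.909% against 1.85% and the NRF1 core in 0% against 3.05%. The amino acid response element was in 3 of the 110 windows, those of KCNA10, KCNJ1 and KCNT2. KCNJ1 was not tested, and KCNA10 and KCNT2 were called in no comparison. Printed here are the 250 bases before the start for 4 members whose changes on day 8 are described above and that have a single window (those with several are not shown): KCND2, which fell after 24 h, KCNJ8, which rose at all exposures, and KCNMB2 and KCNE2, which rose together at 12 h. Capitals mark the letters of the E-box of KCND2, whose first base is at position -181 from the start. None of the 4 motifs was in the other windows printed, which says only that these letters are not there. KCND2 lies on the plus strand at chr7:120272925-120273174, KCNJ8 on the minus strand at chr12:21774707-21774956, KCNMB2 on the plus strand at chr3:178536186-178536435 and KCNE2 on the plus strand at chr21:34363756-34364005.
KCND2: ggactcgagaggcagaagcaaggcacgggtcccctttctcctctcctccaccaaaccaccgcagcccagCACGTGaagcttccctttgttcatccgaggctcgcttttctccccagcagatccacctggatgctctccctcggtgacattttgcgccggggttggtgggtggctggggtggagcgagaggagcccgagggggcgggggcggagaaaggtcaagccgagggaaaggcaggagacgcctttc
KCNJ8: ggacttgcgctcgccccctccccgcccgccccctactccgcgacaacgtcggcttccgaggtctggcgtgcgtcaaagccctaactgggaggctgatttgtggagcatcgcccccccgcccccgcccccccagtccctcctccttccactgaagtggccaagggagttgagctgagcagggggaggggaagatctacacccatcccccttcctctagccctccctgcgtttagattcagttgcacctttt
KCNMB2: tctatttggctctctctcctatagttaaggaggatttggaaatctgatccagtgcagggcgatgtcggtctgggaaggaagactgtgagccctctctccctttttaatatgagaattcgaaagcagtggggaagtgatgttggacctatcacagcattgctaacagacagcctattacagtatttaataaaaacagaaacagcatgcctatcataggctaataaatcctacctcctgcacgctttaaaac
KCNE2: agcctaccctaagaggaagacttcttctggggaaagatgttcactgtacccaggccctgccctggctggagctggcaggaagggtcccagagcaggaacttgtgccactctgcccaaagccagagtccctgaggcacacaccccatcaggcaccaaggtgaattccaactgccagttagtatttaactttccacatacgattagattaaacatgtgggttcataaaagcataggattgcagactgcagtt

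After wash-out and 7 days of recovery, no potassium channel gene was called against DMSO at any exposure. On day 15, 0 of 93 members and 0 of 21240 genes (0%) were called with 100 nM, with 50 nM for 24 h and with 50 nM for 12 h. At an unadjusted p under 0.05 there were 13, 5 and 6 members, or 14%, 5.38% and 6.45%, against 7.21%, 3.28% and 3.47% of all genes. KCND2 read 8.93, 9.26 and 9.16 with DMSO on day 15 and 8.81, 9.12 and 8.87 after 100 nM, a change of -0.18 ± 0.13 (adjusted p = 0.767), with overlapping arrays. After 50 nM it was at -0.40 ± 0.13 (24 h) and -0.28 ± 0.13 (12 h), with all arrays below those of DMSO and an adjusted p of 1.0 in both. KCNJ8 read 4.81, 5.22 and 5.19 with DMSO and 5.25, 5.42 and 4.78 after 100 nM, a change of 0.08 ± 0.19 (adjusted p = 0.953). KCNE2 was at 0.16 ± 0.12.

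At the looser threshold of a fold change over 1.5 with an unadjusted p under 0.01, 2 members were lower after 100 nM on day 15 (2.15% against 0.763% of all genes in either direction and 0.504% lower). KCNQ1, the pore that pairs with KCNE subunits in heart and epithelia, read 4.95, 5.54 and 5.23 with DMSO and 4.69, 4.31 and 3.45 after 100 nM, a change of -1.09 ± 0.23 (adjusted p = 0.217). It was well above background on 3 DMSO arrays and 1 of the 100 nM arrays. KCNIP4 read 5.99, 6.41 and 6.38 with DMSO and 5.77, 5.89 and 4.68 after 100 nM, a change of -0.82 ± 0.21 (adjusted p = 0.406). Replicate 3 of 100 nM was the lowest array for both genes, and without it the changes were -0.74 (adjusted p = 0.879) and -0.43 (adjusted p = 1.0). That array had the highest median raw signal of all 24 (102 against 56 to 85) and the highest share of spots well above background on slide 3 (62.4% against 50.9% to 56.6%), and the part of this in the result was not tested. Without 100 nM replicate 1, KCNQ1 changed by -1.36 and was called (adjusted p = 0.0274). KCNIP4 after 50 nM was at 0.19 ± 0.21 (24 h) and 0.36 ± 0.21 (12 h), above DMSO in mean. Day 15 DMSO replicate 1, whose scan name departs from its label, was the lowest DMSO array for both genes, and without it the changes were -1.24 and -0.95.

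**Figure D2:**
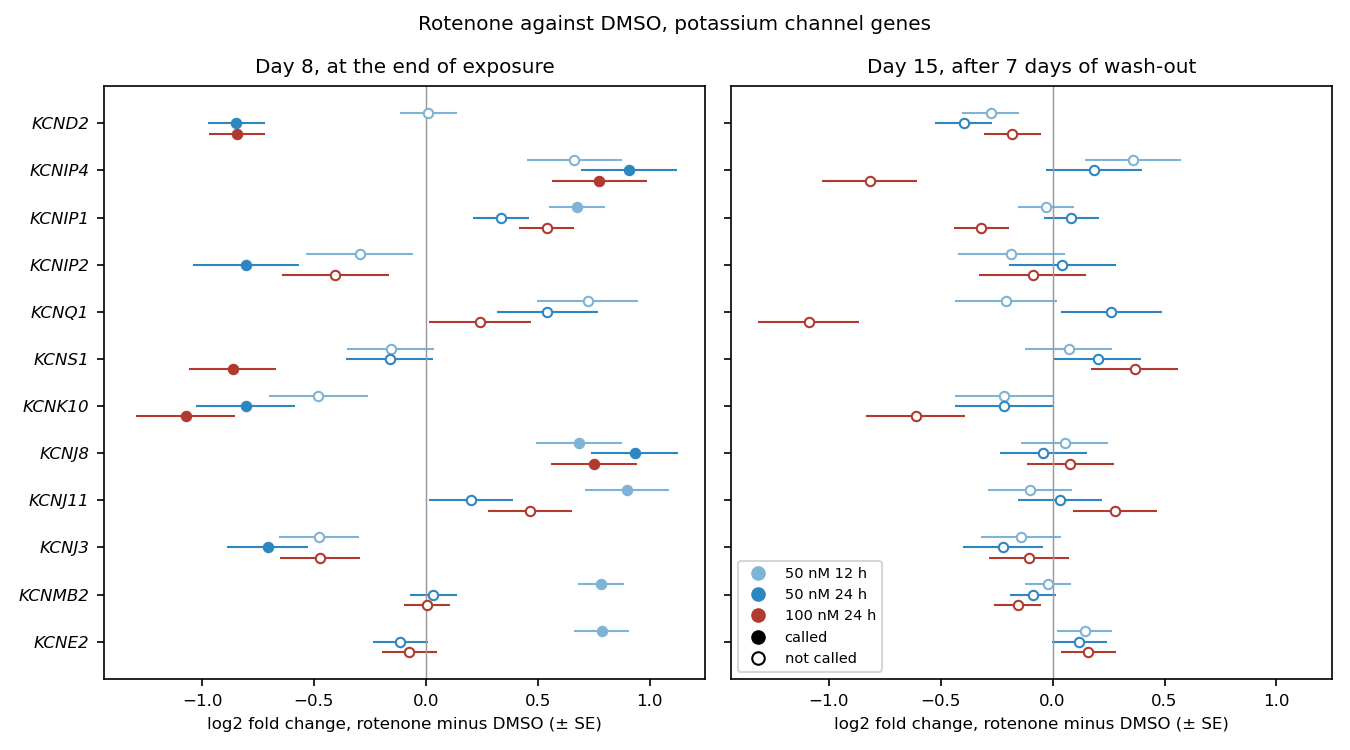
Changes of 12 potassium channel genes with rotenone on the log2 scale, with standard errors, on day 8 (left) and on day 15 after wash-out (right), for 50 nM for 12 h (light blue), 50 nM for 24 h (dark blue) and 100 nM for 24 h (red). Filled points are called changes. They are all on day 8, and on day 15 the lowest values are those of KCNQ1 and KCNIP4 with 100 nM.

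Whether the change with 100 nM differed between the days was tested directly. Of the members 5 were called (5.38% against 1.92% of all genes), 4 with a lower change on day 15 (1.02% of all genes) and 1 with a higher one (0.899%). KCNIP4 went from 0.78 on day 8 to -0.82 on day 15, a difference of -1.59 ± 0.30 (adjusted p = 0.00624). KCNIP1 went from 0.54 to -0.32, a difference of -0.86 ± 0.18 (adjusted p = 0.0112). KCNS1 went from -0.86 to 0.37 (difference 1.23 ± 0.28, adjusted p = 0.0200) and KCNQ1 from 0.24 to -1.09 (difference -1.33 ± 0.32, adjusted p = 0.0316). The differences of KCNIP4 and KCNIP1 held without each of the 12 arrays, whereas that of KCNQ1 was lost in 7 and of KCNS1 in 4 of these 12 cases (adjusted p up to 0.0901 and 0.0596). KCND2 differed by 0.66 ± 0.18 and was not called (adjusted p = 0.0587), nor were KCNJ8 (-0.67 ± 0.27, adjusted p = 0.248) and KCNK10 (0.46 ± 0.31, adjusted p = 0.563), so that recovery of these genes was not shown by this test.

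Between day 8 and day 15 of the vehicle control, which asks how the channel genes move as the aggregates mature, more members were called than with rotenone on either day. KCNC2, KCNJ2 and KCND2 were among those that rose most, and KCNIP4, KCNT1 and KCNE2 fell most. Of the 93 members, 23 were called (24.7% against 12.2% of all genes), 14 up (15.1% against 5.79%) and 9 down (9.68% against 6.38%). At any fold, 34 (36.6%) passed the adjusted p against 23.2% of all genes. The median change was 0.02 over the members and -0.04 over all genes, and the median size of change 0.38 against 0.26. All 8 proliferation markers, such as MKI67 and TOP2A, fell over the same interval, from 9.25 to 10.5 for the log2 of their summed intensity on day 8 to 7.66 to 8.06 on day 15. In the other lists, 2 dopaminergic markers rose and 2 fell, and 0 of 7 neuron markers were called. The log2 of the summed intensity of the dopaminergic list was lower, going from 10.60 to 10.63 on day 8 to between 9.65 and 9.78 on day 15. For the neuron list it was 17.19 to 17.38 and 17.20 to 17.41. Of the markers of other cell types, GJA1 (1 of 6 astrocyte markers), CLDN5 (1 of 5 endothelial markers) and NOTCH3 and ACTA2 (2 of 6 pericyte markers) fell, and 0 of 4 markers each of oligodendrocytes, microglia and fibroblasts were called. The log2 of the summed intensity went from 9.94 to 10.30 on day 8 to between 9.49 and 9.54 on day 15 for the pericyte list, from 10.06 to 10.32 to between 9.12 and 9.22 for the endothelial list, and was 6.70 to 7.09 and 6.73 to 6.96 for the astrocyte list. The part of these cell states and types in the result was not tested. By class, 4 rose and 4 fell among 29 voltage-gated pore subunits, 3 and 2 among 15 auxiliary subunits, 3 and 1 among 15 inward rectifiers, 3 and 1 among 15 2-pore-domain channels, 0 and 1 among 8 calcium- or sodium-activated channels, and 1 and 0 among 10 silent subunits, while KCNRG, a regulator of channel assembly, was not called. With the scanner's own processed signal at a 75th percentile scaling, 25 members were up and 9 down. This setting put the median of all genes at 0.15 and that of the members at 0.49, so that the members' median depends on the processing. With an offset of 50 the split was 12 and 5.

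Of the voltage-gated pore subunits, some of the fast and A-type channels rose. KCNC2, which encodes the fast Kv3.2, read 5.31, 5.30 and 5.20 on day 8 and 7.75, 7.75 and 7.69 on day 15, a rise of 2.46 ± 0.14 (adjusted p = 2.56e-10). Its brighter probe rose by 3.23 and the dimmer one, well above background on 12 of 24 arrays, by 1.70. KCND2 rose by 1.76 ± 0.13 (adjusted p = 6.35e-09), from 7.23 to 7.49 on day 8 to between 8.93 and 9.26. KCNA7 (Kv1.7) rose by 1.49 ± 0.14 (adjusted p = 1.45e-07). The day 15 arrays lay above all day 8 arrays for these 3 genes, which the choice of the genes named for this comparison required.

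Several inward rectifiers and 2-pore-domain channels, which act near rest, rose as well. KCNJ2, the classical inward rectifier Kir2.1, read 6.65, 7.04 and 6.66 on day 8 and 8.61, 8.54 and 8.63 on day 15, a rise of 1.81 ± 0.17 (adjusted p = 2.49e-07). Of the GIRK genes, KCNJ6 rose by 1.16 ± 0.17 (adjusted p = 7.11e-05) from 5.10 to 5.30 up to between 6.25 and 6.59, and KCNJ3 by 1.14 ± 0.18 (adjusted p = 0.000101). The other GIRK genes, KCNJ9 and KCNJ5, were lower in mean on day 15 and not called. KCNJ9 went from 5.32 to 5.10, and KCNJ5, well above background on no DMSO array, from 4.32 to 3.69. KCNK10 rose by 1.51 ± 0.22 (adjusted p = 4.63e-05) and KCNK12, the THIK-2 channel, by 1.21 ± 0.15 (adjusted p = 7.38e-06). KCNAB1, a cytoplasmic beta subunit of Kv1 channels, read 6.57, 6.41 and 6.21 on day 8 and 7.65, 7.79 and 7.73 on day 15, a rise of 1.33 ± 0.20 (adjusted p = 6.60e-05). The other members called up were KCNE5, KCNMB2, KCNK4 and KCNV2, at 0.67 to 1.02, the last well above background on 1 of 3 arrays of day 8 and 2 of 3 of day 15.

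Other members fell between the days. KCNIP4 had the lowest change of all members and fell by 2.06 ± 0.21 on the log2 scale (adjusted p = 7.36e-07), from 8.18, 8.32 and 8.48 on day 8 to 5.99, 6.41 and 6.38 on day 15. KCNT1, a sodium-activated channel known as Slack, went from 8.53, 8.40 and 8.46 to 6.27, 6.64 and 6.75 (-1.91 ± 0.13, adjusted p = 2.38e-09). KCNE2 went from 8.05, 8.04 and 7.99 to 6.06, 6.25 and 6.17 (-1.87 ± 0.12, adjusted p = 1.79e-09). In each of these 3 genes the day 15 arrays lay below all day 8 arrays, which the choice of genes required here too. KCNH6, an ERG-family channel, fell by 1.33 ± 0.11 (adjusted p = 2.55e-08), KCNQ1 by 1.1 ± 0.23 (adjusted p = 0.00134) and KCNK6 (TWIK-2) by 1.01 ± 0.19 (adjusted p = 0.000494). KCNJ8, which pericytes also express, fell by 0.78 ± 0.19 (adjusted p = 0.00618) while 2 of the 6 pericyte markers fell, and KCNH8 fell by 0.80 ± 0.24 (adjusted p = 0.0208), the last call being lost without day 8 DMSO replicate 1 or 3 or day 15 DMSO replicate 1 or 2 (adjusted p up to 0.0776). The calls of the other members given here that fell held without each of the 6 arrays, day 15 DMSO replicate 1 included.

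**Figure D3:**
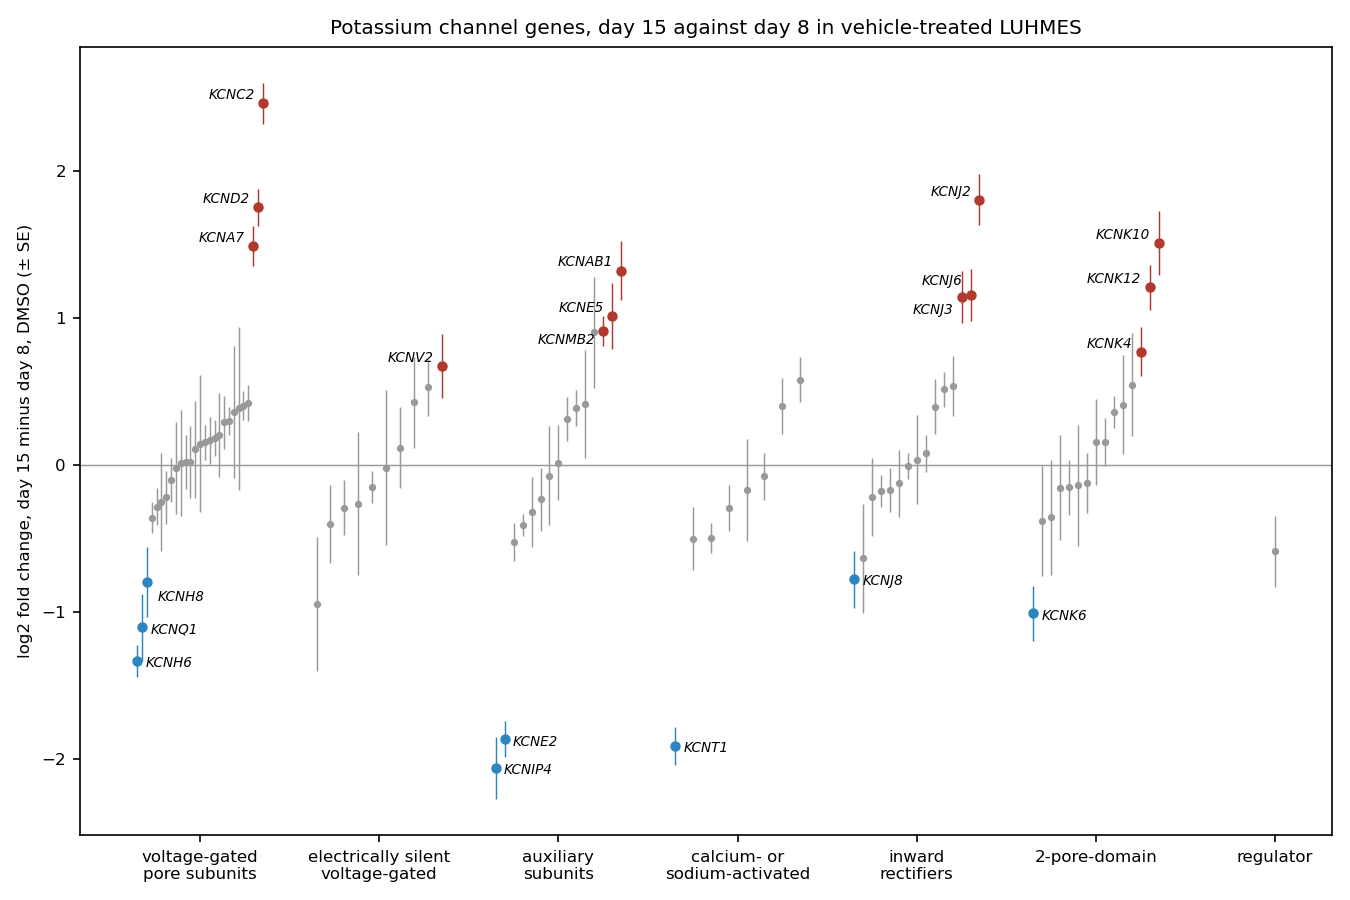
Changes of 91 potassium channel genes between day 8 and day 15 in DMSO, on the log2 scale with standard errors, ordered by size within 7 classes. Called genes are named, in red where higher and in blue where lower on day 15. KCNC2 at 2.46 and KCNIP4 at -2.06 are the extremes.

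For the genes followed for their part in dopaminergic firing, KCNN3 changed by 0.58 ± 0.15 (adjusted p = 0.00942) and KCNC1 by 0.41 ± 0.10 (adjusted p = 0.00489) between the days in DMSO, both under the fold threshold. KCNMA1 changed by -0.50 ± 0.10 (adjusted p = 0.00155), with its probes between -1.29 and -0.06. KCNH2 (-0.28 ± 0.13, adjusted p = 0.120), KCNJ11 (0.40 ± 0.19, adjusted p = 0.142) and KCNA2 (0.17 ± 0.16, adjusted p = 0.515) did not pass the test. KCNMB3, a BK beta subunit, had probes at 0.92 and -0.30. Averages over such probes to different transcripts are uncertain.

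**Figure D4:**
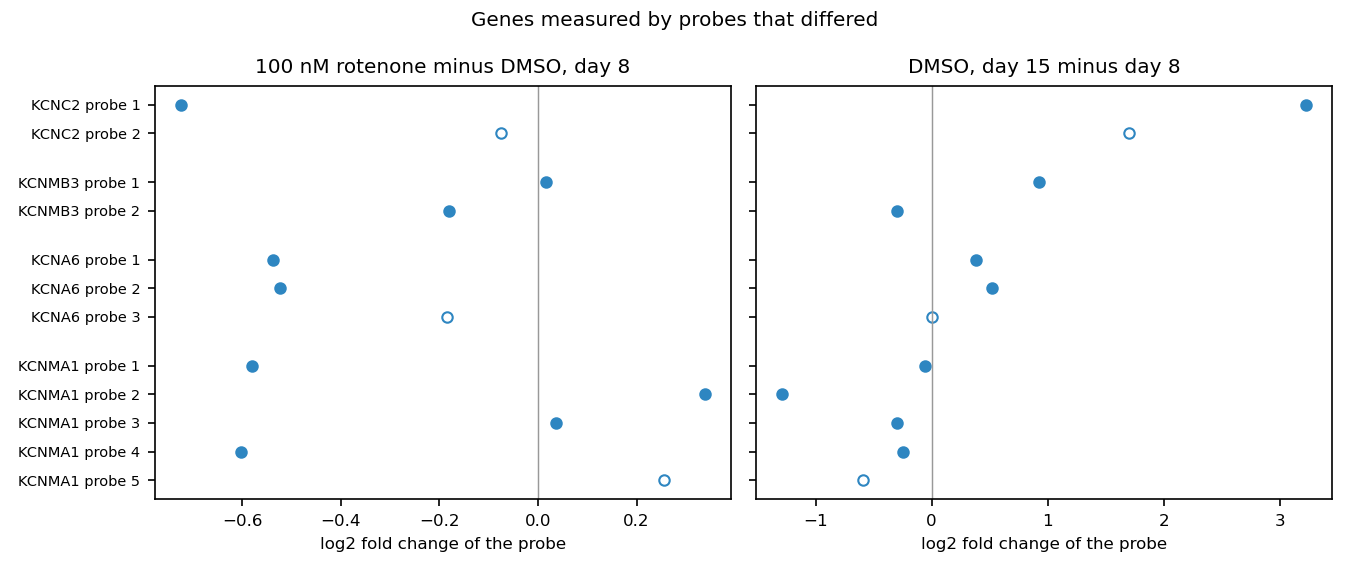
Log2 fold change of single probes of 4 potassium channel genes, with 100 nM rotenone on day 8 (left) and between the days in DMSO (right), ordered by brightness within a gene. Filled points are probes well above background on all 24 arrays and open points are other probes. The KCNMB3 probes were at 0.92 and -0.30 between the days, and those of KCNMA1 had both signs with rotenone.

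The comparison between days shares the day 8 DMSO arrays with the rotenone comparisons, so that their values are given side by side only. KCND2 was at -0.84 with 100 nM and at 1.76 between the days, KCNK10 at -1.07 and 1.51, KCNJ8 at 0.75 and -0.78, and KCNIP4 at 0.78 and -2.06. Each of these 4 members had opposite signs in the 2 comparisons. A high or low value of the shared arrays would move both values in the same direction, and its part was not tested. KCNMB2, which rose at 12 h of rotenone (0.78), also rose between the days (0.91), whereas KCNE2 rose at 12 h (0.78) and fell between the days.

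Of the 25 related genes, 5 were called between the days in DMSO and all were up, where 12.2% of all genes were called and 5.79% were up. Among them, LRRC26 rose by 0.98 ± 0.13 (adjusted p = 1.47e-05), LRRC55, also a BK gamma subunit, by 0.80 ± 0.19 (adjusted p = 0.00404), and the sodium-potassium ATPase subunit ATP1B1 by 0.61 ± 0.10 (adjusted p = 0.000135). ABCC8 and ABCC9 changed by -0.33 ± 0.16 (adjusted p = 0.158) and -0.69 ± 0.33 (adjusted p = 0.15).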

How the data were processed

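Total RNA of 24 wells was measured on 1-color Agilent 8x60K arrays, 3 in each of 8 groups. The authors deposited spot intensities written by Agilent Feature Extraction (11.5.1.1 for slides 1 and 3, 12.0.0.7 for slide 2), with local background and flags, and a matrix of log2 values for 21733 probes that they had normalized and corrected for batch, in which 82 members had a probe. Other deposited values, such as flags and well-above-background marks, were used as given.

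Median intensities were background-corrected (normexp, offset 0) and quantile normalized following the study's methods, with limma 3.58.1 (R 4.3.3, package data.table in version 1.17.8). Slide 1 was adjusted to slides 2 and 3 with parametric ComBat, rewritten from its description with groups as covariates. A spot stayed in if, on 3 or more arrays, it exceeded the negative controls' 95th percentile by a factor of 1.1. Control spots were removed and flagged values set to missing. Spots were averaged by probe and probes by gene, named through RefSeq accessions of GRCh38.p14 (30275 of 50599 probes). Of 119 member probes 116 were kept. One limma fit on all arrays (16 residual and 2.37 prior degrees of freedom) gave 10 comparisons, with two-sided moderated tests and Benjamini-Hochberg adjustment over 21240 genes. Marks of well above background come from the scanner software. Precision is limited by the number of arrays. The procedure was tested on simulated data. Python 3.11.15 and matplotlib 3.10.9 drew the figures.

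The replicate number is the slide number. Each array's deviation from its group mean was correlated with those of other groups before ComBat. In 84 pairs sharing a number the lowest r was 0.167 and the median 0.460. The 168 pairs with different numbers had a median of -0.354. After ComBat, as in the main fit, the medians were 0.017 and -0.008, and the lowest r of pairs sharing a number was -0.431. Because each number stands for a slide, these r cannot tell a shared slide from wells paired in culture. Pairing of the wells was not tested. Groups also kept their position on each slide, so that position and group cannot be told apart. Named genes were members called with rotenone against DMSO, the members with the largest changes between the days in DMSO (at most 10 each way, without overlap), members at the looser threshold with 100 nM on day 15, and a list of genes known in neurons. Some of these genes, and some related genes, are not reported here. These lists and members were chosen with earlier results of these data known. Alternatives were another offset, the processed signal, other scaling, no ComBat, the slide as a fixed or random block, slides 2 and 3 only, fewer arrays in the fit, other filters, the brightest probe, the authors' table and leaving out each array.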

Additional observations from a re-analysis of the deposited data

Results flagged for a closer look

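The change with 100 nM rotenone differed between day 8 and day 15 for 5 potassium channel genes, 4 of which are given, by the test of that difference in limma's fit (adjusted p under 0.05 over all genes and a difference over 1.5-fold). The change on day 15 minus that on day 8 was -1.59 for KCNIP4, -0.86 for KCNIP1, -1.33 for KCNQ1 and 1.23 for KCNS1 on the log2 scale. KCNQ1 was well above background on 1 of 3 arrays with 100 nM on day 15, and KCNS1 on 1 of 3 with 100 nM and 2 of 3 with DMSO on day 8.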

How the results depend on the processing

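Each count of called members was recomputed under 12 alternatives and without each array in turn. The calls are for 100 nM on day 8, 50 nM for 24 h, 50 nM for 12 h, the difference of days with 100 nM, and 24 h against 12 h, in that order, and were 6, 6, 5, 5 and 3. With an offset of 50 the first 4 were 2, 3, 3 and 2. With the processed signal the first 3 were 10, 11 and 11, where the median of all genes was 0.10 with 100 nM. Without ComBat they were 2, 1, 1, 1 and 0, on slides 2 and 3 alone 2, 2, 1, 0 and 0, and with only the arrays compared 3, 3, 1, 0 and 0. For the difference of days, scaling to the 75th percentile gave 3, with a median of 0.14 over all genes, and the authors' table gave 3. Up against down calls were 5 and 6 on the processed signal and 3 and 3 at the 75th percentile for 50 nM for 24 h (2 and 4 here), 9 and 2 and 5 and 1 for 12 h (5 and 0 here), and 0 and 6 and 0 and 3 for the difference of days (1 and 4 here). The fits on slides 2 and 3 alone and on only the arrays compared used fewer arrays. The cause of these shifts was not tested.

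Leaving out 1 array gave 4 to 7, 3 to 6, 4 to 5, 3 to 5 and 3 to 5 calls in the same order, the 3 of 50 nM for 24 h without day 8 DMSO replicate 1. It gave 21 to 24 between the days in DMSO, 0 to 1 with 100 nM on day 15 (KCNQ1, without 100 nM replicate 1) and 0 elsewhere. The replicate block (slide) in place of ComBat gave 7, 6, 5, 5 and 3 calls, added KCNAB1 with 100 nM and changed no other call of a member. Of 776 recomputed values of 42 named results, 647 kept their side of the threshold, 128 lost the call, 1 gained it and 0 changed sign. The number of arrays, 3 a group, limits what can be called.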
